A study of Mus musculus with 8 samples.

Results

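The cells described here are the 434 droplets of SN4741 cultures in which over 6000 genes were detected and at most 15% of UMIs (unique molecular identifiers, 1 per captured RNA molecule) were mitochondrial, out of 19125 barcodes in 8 single-cell libraries. They are called gene-rich cells below. They came from the 5 libraries that held at least 20 such cells: replicates 1, 2 and 3 at 37 °C, with 37, 96 and 142 of them, and replicates 1 and 3 at 39 °C, with 139 and 20. In every library they were set against the cells of the same library with 3000 to 6000 detected genes, 7009 in all, called comparison cells, on the share of UMIs each gene took. A further 6 such cells in replicate 2 at 39 °C were not used, and replicate 4 at either temperature had none.

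SN4741 is a mouse line made from 1 clone of embryonic substantia nigra cells that carry a temperature-sensitive SV40 large T antigen under the tyrosine hydroxylase promoter, and the labels call it a neural precursor line of genotype WT. At the permissive 37 °C the cells were grown with 10% fetal bovine serum, and for differentiation they spent 48 hours at 39 °C with 0.5% serum, so that temperature and serum cannot be told apart. The authors captured 4 libraries from each condition with 10x Genomics 3' v3 chemistry, and their own filter removed cells with over 6000 genes as doublets, so the gene-rich cells were outside their analysis. Separate cultures are not stated for the replicates, so that p-values here measure the spread between these libraries, which may be technical.

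A cell that has copied its DNA and is about to divide holds more cytoplasm and more RNA than a newly divided one, and in G2 and mitosis it switches on a set of spindle, chromosome and cytokinesis genes. Cells that leave the cycle may also enlarge without dividing. In droplet sequencing a high count of genes can also come from a doublet, a droplet with a pair of cells, which is why such cells are often removed. A doublet of cells in different phases would hold the transcripts of both, for example the mitotic genes of one and the G1/S genes of the other.

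The gene-rich cells had 6001 to 7990 detected genes and 26476 to 77843 UMIs. The cells were chosen by their number of detected genes and their mitochondrial share, from which these values follow, and they are given as a description, without a test. Their median UMI count was 35519, 37092, 36168, 37630 and 33586 in 37 °C replicates 1, 2 and 3 and 39 °C replicates 1 and 3, in that order, and that of the comparison cells was 14381, 16078, 16543, 17542 and 12982. The ratio of the medians thus lay between 2.15 and 2.59. A cell can reach more genes by having more UMIs or by spreading the same number more evenly, so each cell was also thinned to 5000 UMIs. At that depth the median number of genes was 2141 to 2189 in gene-rich cells and 2135 to 2175 in comparison cells, so the classes differed in depth and little in evenness. Mitochondrial genes took a median of 7.08 to 7.74% of UMIs in gene-rich cells and 7.35 to 8.23% in comparison cells.

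The share of barcodes that were gene-rich was 1.45, 5.34 and 7.44% in 37 °C replicates 1, 2 and 3 and 0% in replicate 4. At 39 °C it was 11.9, 0.215, 0.764 and 0% in replicates 1 to 4. Replicate 1 at 39 °C had the highest share and also the fewest barcodes, 1167, with the highest median UMI count over all its barcodes, 17616. The 2 libraries without any gene-rich cell had 2730 and 3557 barcodes and medians of 9694 and 6603 UMIs. A fixed gene count therefore picked different fractions of the cultures, and the part of recovery and depth in this was not tested. Next to the limit, the 266 cells with 5751 to 6000 genes had a median of 30480 UMIs and the 177 cells with 6001 to 6250 genes a median of 33855.

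**Figure D1:**
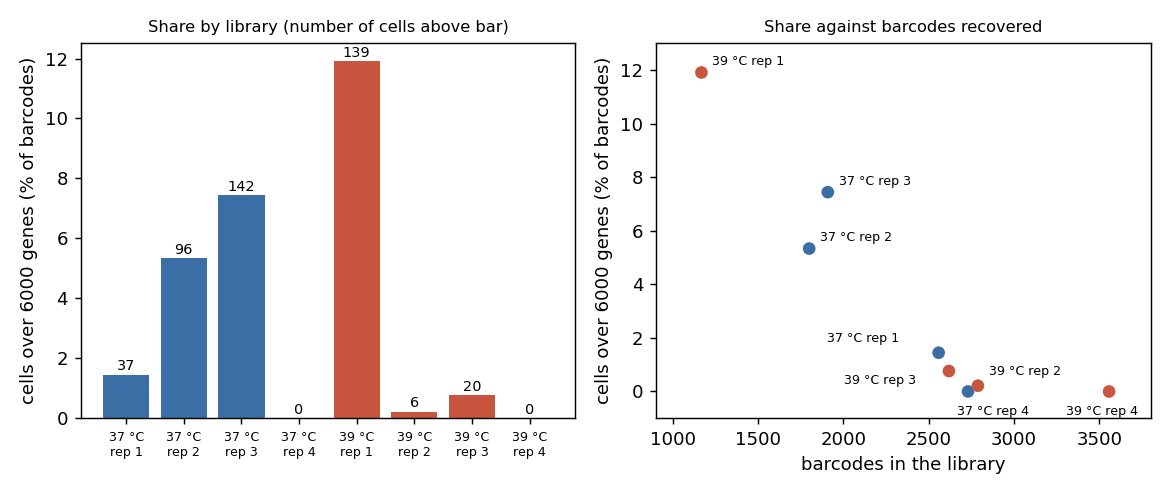
Cells with over 6000 detected genes as a percent of the barcodes of each of the 8 libraries (left, bars, with the number of cells above each) and the same percent against the number of barcodes in the library (right, 1 point a library); blue is 37 °C and red is 39 °C. The library with the fewest barcodes, 39 °C replicate 1, has the highest share, 11.9%, and the 4 libraries with most barcodes hold 0 to 20 such cells.

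Library totals ran from 22988911 to 33652656 UMIs. Pairs of libraries shared 0 to 5 barcodes, and no gene-rich cell's barcode was that of a gene-rich cell in another of the 5 libraries. Summed counts differed between replicates by more than independent draws of single UMIs would (chi-square of 2.8 to 24.1 per degree of freedom). UMIs are grouped in cells, so the draw of cells may have a part in this. The summed UMIs behind the gene values were 703737 for the 20 gene-rich cells of 39 °C replicate 3 and 1355460 to 5567610 for the others, so that replicate 3 at 39 °C is the least precise. Against cell type markers, the gene-rich cells held the genes of the rest of the line: pooled over the 5 libraries, Vim, an intermediate filament of progenitor and mesenchymal cells, stood at 5199 CPM (counts per 1000000 UMIs) and Nes, a progenitor filament, at 396, against 5378 and 345 in comparison cells. The neuronal genes Snap25, Syt1 and Dcx, the astrocyte genes Gfap and Aqp4, the oligodendrocyte genes Olig1 and Olig2, and Ptprc, C1qa, C1qb, Tyrobp, Cdh5, Kdr, Cldn5 and Hbb-bs of immune, endothelial and red blood cells had 0 UMIs in all 434 cells. Of the other progenitor markers, the transcription factor Sox2 stood at 59.5 CPM against 60.3, while Pax6 and Fabp7 had 0 UMIs in gene-rich cells. Col1a1, a fibrillar collagen, took 1037 CPM. The classes drew on the libraries in different proportions: 39 °C replicate 1 gave 5567610 UMIs of gene-rich and 16707641 of comparison cells. Replicate 3 at 39 °C gave 703737 and 21868076. The pooled marker values are therefore rough levels and not a comparison within libraries.

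Most gene-rich cells at 37 °C were in G2/M, and most at 39 °C were in G1. Cell cycle phases were called with published S and G2/M gene lists on cells thinned to 5000 UMIs. The G2/M share of gene-rich cells was 51.4, 58.3 and 64.1% in 37 °C replicates 1, 2 and 3, against 37.2, 35.1 and 35.5% of comparison cells. At 39 °C it was 5.04 and 5% against 3.11 and 4.66% in replicates 1 and 3. In percentage points, each of the 3 differences at 37 °C was above both differences at 39 °C, where far fewer comparison cells were in G2/M. Counting error alone gives 95% Wilson intervals of 35.9 to 66.6% for the 37 cells of 37 °C replicate 1 and 55.9 to 71.5% for the 142 of replicate 3.

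Over the 5 libraries the G2/M share was higher in gene-rich cells by 13.6 ± 12.5 percentage points (SD, n = 5 libraries), in 5 of 5 libraries. In 39 °C replicate 3 that share rests on 1 of 20 cells, and with phases called on all UMIs it was 0% against 5.11%. A 2-sided exact sign-flip permutation test gave p = 0.062, the smallest that 5 libraries allow, and 0.0938 after Benjamini-Hochberg adjustment over the 3 phases. With phases called on all UMIs, on cells thinned to 8000 UMIs, and for cells above 6500 genes, the difference was 14.7, 14.6 and 25.7 points, each with an exact p of 0.188. The G1 share was lower by 10.4 ± 4.1 points in 5 of 5 libraries, with the same exact p of 0.062. For S phase the difference was -3.21 ± 11.8 points and went either way (exact p = 0.562). The G2/M difference was 22.0 points at 37 °C and 1.13 points at 39 °C, and permuting the temperature labels gave an exact p of 0.1, again the smallest possible.

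With the libraries of a temperature pooled, the rise in G2/M at 37 °C was gradual along the number of genes. Of the 37 °C cells with 3000 to 3500 genes, 27.9% were in G2/M; this was 39.5% at 4501 to 5000 genes, 50.1% at 5501 to 6000, 55.9% at 6001 to 6500 and 71.2% of the 80 cells above 6500. G1 went the other way, from 29.1% to 7.5%. Of the cells above 6500 genes, 4, 31 and 45 came from replicates 1, 2 and 3. In replicate 1 the G2/M share was 57.1% at 5501 to 6000 genes and 45.5% of the 33 cells at 6001 to 6500. At 39 °C the G2/M share stayed between 2.85 and 6.45% and the G1 share between 76.3 and 83.3% in every pooled bin. Replicate 1 gave 57 of the 62 cells above 6500 genes. In replicate 3 alone the G1 share ran from 66.7% of the 15 cells at 6001 to 6500 genes to 87.0% at 5001 to 5500. In the pooled cells the limit of 6000 genes cut through a continuous range: at 37 °C, 52.7% of cells just outside it and 51.3% just inside it were in G2/M. By library these shares were 55.6, 55.7 and 48.75% outside and 36.8, 52.6 and 54.8% inside in replicates 1, 2 and 3. The 36.8% rests on 19 cells.

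**Figure D2:**
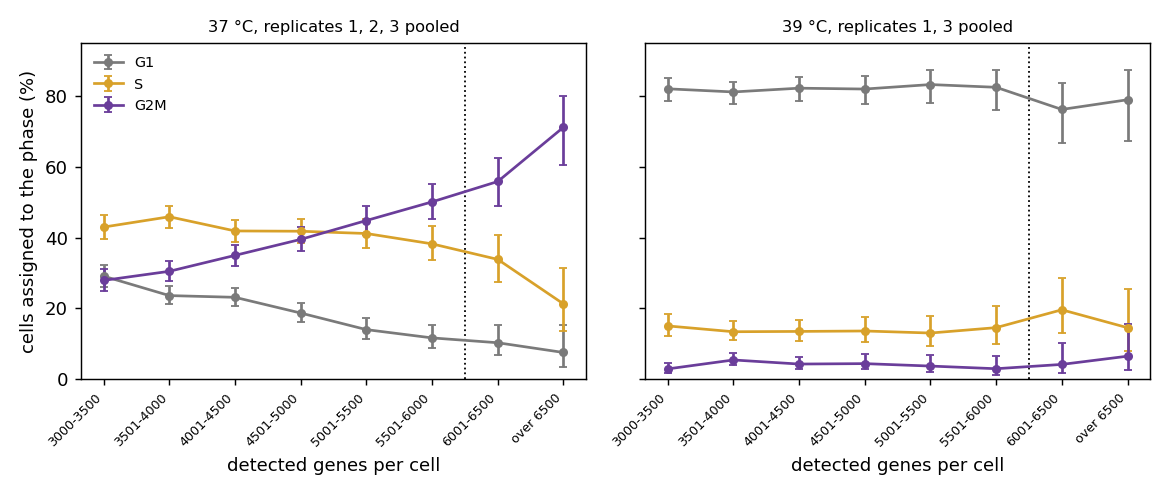
Percent of cells called G1 (grey), S (yellow) or G2M (purple) in bins of detected genes per cell, pooled over the 3 libraries at 37 °C (left) and the 2 at 39 °C (right); bars are 95% Wilson intervals, which cover counting error only, and the dotted line marks 6000 genes. At 37 °C the G2M share climbs from 27.9% in the lowest bin to 71.2% in the highest, and at 39 °C it stays between 2.85 and 6.45%.

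The limit on genes also sets the depth of the gene-rich cells in every phase, so the UMI counts by phase are a description. Comparison cells called G1 had a median at 37 °C of 13584, 14384 and 15265 UMIs in replicates 1, 2 and 3 against 15192, 17496 and 17700.5 for G2/M. Gene-rich cells called G1 had a median of 39578, 37468 and 38802 UMIs and those called G2/M 36349, 37342 and 36382. The G1 medians of gene-rich cells rest on 3, 11 and 12 cells.

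A relative limit was added after the data had been seen, since the fixed one reached only 5 libraries: the 5% of cells with most genes in each of the 8 libraries against the 25th to 95th percentile. By this rule the G2/M share of the top cells was 54.0, 59.1, 69.5 and 47.0% in 37 °C replicates 1 to 4, against 33.9, 37.5, 37.8 and 38.0%. At 39 °C it was 7.02, 5.80, 6.15 and 6.29% against 3.30, 3.64, 4.56 and 4.31%. The top cells were higher in 8 of 8 libraries (2-sided exact sign-flip p = 0.00781, the smallest for 8 libraries), including the 3 libraries that the fixed limit did not use. The difference was 20.6 ± 9.27 points at 37 °C and 2.36 ± 0.932 points at 39 °C (SD, n = 4 libraries each), and the temperatures differed by 18.2 points with an exact permutation p of 0.0286, the smallest of 70 assignments. In points, all 4 differences at 37 °C lay above all 4 at 39 °C. Far fewer middle cells were in G2/M at 39 °C, so an equal ratio of shares would give a smaller gap there. Ratios were not tested. In 39 °C replicate 4, thinning left 2295 of the 2447 middle cells, and whether free RNA in the droplets had a part in the phase calls was not tested.

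**Figure D3:**
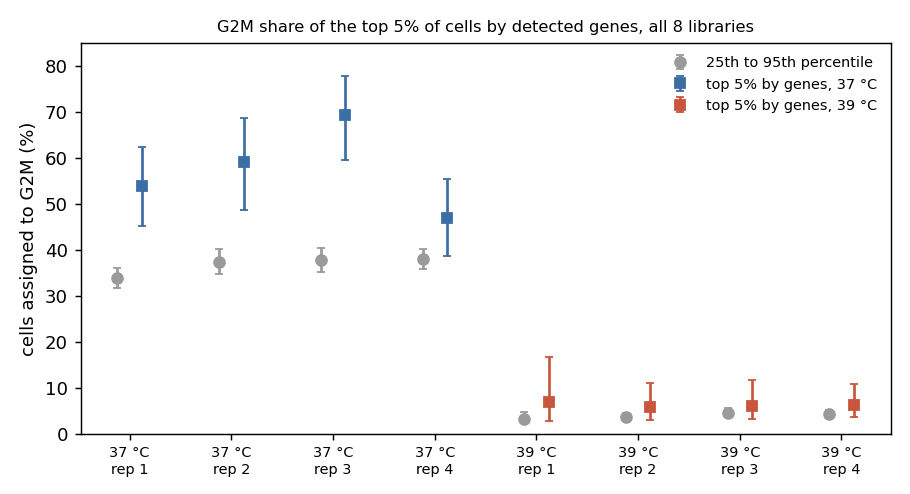
Percent of cells called G2M among the 5% of cells with most detected genes (squares, blue for 37 °C and red for 39 °C) and among cells from the 25th to the 95th percentile (grey circles) in each of the 8 libraries; bars are 95% Wilson intervals for counting error. The squares lie above the circles in all 8 libraries, by 9.03 to 31.7 points at 37 °C and by 1.60 to 3.71 points at 39 °C.

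Measures linked to doublets were taken next. After thinning to 5000 UMIs, a cell was called high for mitotic or for G1/S transcripts when its sum over 18 mitotic or 20 G1/S genes was above the 75th percentile of comparison cells in its library. Cells high for both made up 0 of 37, 1 of 96 and 3 of 142 gene-rich cells at 37 °C (0, 1.04 and 2.11%), and 1.45, 1.48 and 1.29% of comparison cells. At 39 °C they were 13 of 139 and 3 of 20 (9.35 and 15%) against 7.33 and 8.74%, where the mitotic limit was only 2 UMIs a cell. The difference over the 5 libraries was 1.45 ± 2.99 points, higher in 3 of 5, with an exact sign-flip p of 0.375, and its sign depended on the limit: with the 90th percentile it was -0.516 points. At 37 °C the 2 sets of transcripts moved in opposite directions in gene-rich cells: the mean mitotic sum was 18.4, 20.9 and 21.4 UMIs against 13.2, 13.2 and 13.4, and the mean G1/S sum 6.27, 6.77 and 6.35 UMIs against 7.05, 7.86 and 7.98. A zero count of 37 cells allows a share of up to 8.11%. Thinning to 5000 UMIs also blends the transcripts of a pair of cells, so a mixed doublet may pass neither limit. These counts and sums therefore cannot tell how many gene-rich cells were doublets.

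A doublet caller that simulates pairs of cells, Scrublet, marked only 53 of 19125 barcodes (0.277%), too few for its calls to be used, and 9 of these were gene-rich. From the number of barcodes recovered, the expected doublets were 2.05, 1.44 and 1.53% of barcodes in 37 °C replicates 1, 2 and 3. They were 0.934 and 2.09% in 39 °C replicates 1 and 3. Gene-rich cells made up 1.45, 5.34, 7.44, 11.9 and 0.764% in the same order. The expected share was the higher one only in 37 °C replicate 1 and 39 °C replicate 3. The part of doublets in the gene-rich shares was not tested. The Scrublet score was compared within libraries, by the share of cells in a top group. This group held the highest scores, as many as the doublets expected. Of the gene-rich cells, 5 of 37, 10 of 96, 10 of 142, 2 of 139 and 4 of 20 were in this top group, 31 of 434 in all, and the shares were 13.5, 10.4, 7.04, 1.44 and 20% against 2.64, 0.987, 1.22, 0.778 and 2.72% of comparison cells. A score of this kind may depend on the number of genes in a cell, so this share has no test. All cells come from 1 line, and a droplet with a pair of cells in the same phase cannot be told apart from a single large cell in these data. DNA content was not measured in these droplets. The study karyotyped the undifferentiated line and reported polyploid cells whose chromosome complement differed from cell to cell. Whether ploidy had a part in the number of genes was not tested.

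Between gene-rich and comparison cells of the same library, 98 genes took a higher and 111 a lower share of UMIs among 12683 tested, which is 0.773 and 0.875% of the genes. Genes were called in edgeR's quasi-likelihood test on UMI sums, with the library as a block, where the Benjamini-Hochberg adjusted p was below 0.05 and the size of the log2 fold change above 0.5. Without the limit on size, 592 genes (4.67%) were higher and 731 (5.76%) lower. Values are in CPM of the summed UMIs and log2 fold changes carry the standard error of the fit, over 5 libraries. Without the library block, in a fit that sets the libraries of both temperatures in 1 pool, edgeR called 0 genes (732 at an unadjusted p below 0.05), DESeq2 with the block called 90, and against comparison cells of 4500 to 6000 genes only 23 were called. Without 37 °C replicate 2 the count was 133. Of the lists, those of mitosis held the most called genes.

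Of the 18 mitotic genes, all of them tested, 8 rose and none fell, 14 were higher without the limit on size, and the median log2 fold change was 0.46, against -0.01 over all genes. Nusap1 (ENSMUSG00000027306, chr2:119618298-119651244, plus strand of GRCm38, mm10), which bundles spindle microtubules, took 169.6, 208 and 180.1 CPM in the gene-rich cells of 37 °C replicates 1, 2 and 3 and 13.4 and 10.8 CPM in those of 39 °C replicates 1 and 3. Its comparison cells stood at 112, 115 and 103 CPM and 7.87 and 13.3 CPM, which gave a log2 fold change of 0.75 ± 0.07 (adjusted p = 2.86e-07). The gap was wide in the 37 °C libraries, and in replicate 3 at 39 °C the gene-rich cells were the lower ones. Top2a (ENSMUSG00000020914, chr11:98992943-99024189, minus strand), the topoisomerase that untangles sister chromatids, rose by 0.59 ± 0.06, from 514, 495 and 478 CPM to 747, 787 and 765 CPM at 37 °C and from 53.4 and 67.2 CPM to 77.9 and 85.01 CPM at 39 °C, higher in 5 of 5 libraries. Aurka, a kinase of the spindle poles, rose by 0.69 ± 0.10 and Ccnb1, the cyclin that starts mitosis, by 0.64 ± 0.08.

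All 11 cytokinesis genes had an adjusted p below 0.05 in the higher direction, 4 of them past the limit on size, with a median of 0.47. The kinesins Kif4 and Kif23, which build the central spindle, rose by 0.60 ± 0.08 and 0.60 ± 0.08, the kinase Aurkb by 0.59 ± 0.10 and Anln, a scaffold of the cleavage furrow, by 0.57 ± 0.06. The spindle pole gene Aspm (0.57 ± 0.07), the GTPase regulator Arhgap11a (0.63 ± 0.08) and the proliferation marker Mki67 (0.53 ± 0.07) rose as well. Without 37 °C replicate 2, Aspm, Aurkb and Mki67 were at 0.48, 0.49 and 0.49, and without 37 °C replicate 3, Aurkb, Kif23 and Mki67 were at 0.47, 0.48 and 0.48, below the limit on size. Prc1 is in both lists. The phase calls used Top2a, Nusap1, Aurka, Aurkb, Kif23, Anln, Mki67 and others of these genes, so their rise and the higher G2/M share are not independent of each other.

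Of the 20 G1/S genes none was called, 4 were lower without the limit on size and none higher, and the median was -0.18. Ung, which removes uracil from DNA during replication, was the gene of the S-phase list that fell, by 0.74 ± 0.20 on the log2 scale (adjusted p = 0.0179). It took 12.3, 6.54 and 8.99 CPM against 15.5, 21.6 and 18.0 at 37 °C, but 6.43 and 5.4 CPM against 4.46 and 4.6 at 39 °C, where gene-rich cells were the higher ones. The call was lost without 37 °C replicate 2 (-0.38) and without 37 °C replicate 3 (-0.59). The histone genes of the Hist clusters had a median of 0.04 over the 44 of 67 tested, with 2 called higher: Hist2h2aa1 (0.64 ± 0.18) and the linker histone Hist1h1e (0.53 ± 0.07). Genes of these clusters are near-identical copies between which reads can be split, so their single values are uncertain, and both calls were lost without 37 °C replicate 3 (0.46 and 0.44), that of Hist2h2aa1 also without 37 °C replicate 2 (0.48) and that of Hist1h1e without 37 °C replicate 1 (0.49).

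The promoters of the 3 mitotic list genes with the largest rises are printed here because these genes rose together in the 37 °C cells. They span 250 bases before to 50 after the start in the RefSeq annotation of GRCm38.p6, written 5' to 3' on the gene's strand, with capitals at matches on either strand to CCAAT (the CCAAT box) and TTTGAA (the cell cycle homology region, CHR), 2 motifs described in G2/M promoters. No 2 matches overlap in these runs.
Nusap1 (chr2:119618048-119618347, plus strand): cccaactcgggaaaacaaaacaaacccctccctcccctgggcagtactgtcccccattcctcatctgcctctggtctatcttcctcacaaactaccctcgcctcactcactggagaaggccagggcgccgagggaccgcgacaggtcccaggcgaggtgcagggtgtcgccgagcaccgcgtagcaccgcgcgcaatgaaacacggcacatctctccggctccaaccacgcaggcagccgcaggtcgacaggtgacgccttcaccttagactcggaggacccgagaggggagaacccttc
Aurka (chr2:172370521-172370820, minus strand): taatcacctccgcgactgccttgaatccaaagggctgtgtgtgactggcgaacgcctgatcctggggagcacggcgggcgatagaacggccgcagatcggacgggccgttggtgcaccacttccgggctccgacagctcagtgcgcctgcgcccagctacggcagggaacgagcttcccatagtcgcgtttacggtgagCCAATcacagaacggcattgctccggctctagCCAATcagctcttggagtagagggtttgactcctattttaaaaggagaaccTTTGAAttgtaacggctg
Ccnb1 (chr13:100786437-100786736, minus strand): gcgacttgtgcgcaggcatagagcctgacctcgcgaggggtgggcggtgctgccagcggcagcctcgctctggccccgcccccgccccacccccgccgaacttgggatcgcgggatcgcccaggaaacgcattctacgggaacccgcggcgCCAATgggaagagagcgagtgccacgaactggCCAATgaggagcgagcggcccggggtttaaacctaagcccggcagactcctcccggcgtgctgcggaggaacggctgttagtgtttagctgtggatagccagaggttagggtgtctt
The Aurka promoter held 1 match to TTTGAA and 2 to CCAAT, that of Ccnb1 0 and 2, and that of Nusap1 none of either. The 2 CCAAT matches started 32 bases apart in both Aurka and Ccnb1. Of the promoters of the 8 mitotic genes that rose, all matched by symbol, 5 (62.5%) held TTTGAA and 7 (87.5%) CCAAT, while 17.9 and 37.4% of all 32851 promoters of this length did. A match is a run of letters and not a measured site. The 8 genes come from a list of mitotic genes and the motifs are described in G2/M promoters, so these shares describe the list. Mitotic genes that were not called were not compared, and a link between the motifs and the rise was not tested.

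Among called genes with at least 50 CPM and 1 direction in all 5 libraries, the largest rise outside the genes of mitosis was that of Ccnd2 (ENSMUSG00000000184, chr6:127125162-127152193, minus strand), a D-type cyclin that drives cells from G1 into the cycle. It took 247, 251 and 195 CPM in gene-rich cells at 37 °C and 132 and 136 CPM at 39 °C, against 136, 123 and 114 CPM and 100.4 and 99.9 CPM in comparison cells, a log2 fold change of 0.73 ± 0.07 (adjusted p = 3.2e-07). All 5 gene-rich values were above the comparison value of their library, and the 2 at 39 °C were close to the levels of comparison cells at 37 °C. Stmn2 (ENSMUSG00000027500, chr3:8509360-8561606, plus strand), a microtubule regulator of growing neurites and the 1 gene called among 9 tested neuronal genes, rose by 0.68 ± 0.08, with 195, 161 and 139 CPM against 138, 103 and 104 at 37 °C and 94.6 and 113 CPM against 40.9 and 69.05 at 39 °C. In replicate 3 at 39 °C, 1 of the 20 gene-rich cells held 30.95% of their Stmn2 UMIs. In the libraries at 39 °C alone the log2 fold change was 1.04 ± 0.11, and at 37 °C 0.52 ± 0.06. Both errors come almost wholly from the spread of all genes together.

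Matrix and contractile genes were mixed. Lox, which cross-links collagen and elastin, rose by 0.65 ± 0.11: its level in gene-rich cells was even, 93.6, 89.3, 93.1, 69.5 and 89.1 CPM over the 5 libraries, while comparison cells had 84.2, 66.1 and 71.3 CPM at 37 °C and 25.5 and 43.6 CPM at 39 °C. The fibrillin gene Fbn1 rose by 0.52 ± 0.08, the actin-binding Tagln by 0.61 ± 0.10 and Flrt2, an adhesion protein of the cell surface, by 0.53 ± 0.06. Col6a1, a collagen of the cell's surroundings, fell by 0.76 ± 0.14, so that the 19 matrix genes tested gave 2 higher and 1 lower. Without 39 °C replicate 1 the values of Lox and Fbn1 were 0.42 and 0.37 and neither was called. Of the Tagln UMIs of the 20 gene-rich cells in 39 °C replicate 3, 1 cell held 66.7%.

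By the same limits, the largest fall was that of Spp1 (ENSMUSG00000029304, chr5:104435118-104441050, plus strand), the secreted phosphoprotein osteopontin. Gene-rich cells had 91.3, 69.5 and 101 CPM at 37 °C and 438 and 124 CPM at 39 °C, and comparison cells 170.5, 188 and 224 and 460.3 and 446 CPM, a log2 fold change of -0.96 ± 0.13 (adjusted p = 2.8e-05). The fall was small in replicate 1 at 39 °C and wide in replicate 3, which rests on 20 cells. Ctsl (ENSMUSG00000021477, chr13:64359337-64370890, minus strand), the lysosomal protease cathepsin L, was lower in every library, at 73.7, 97.8, 74.01, 135 and 98.5 CPM against 143, 168, 143, 189.8 and 155 CPM, with a log2 fold change of -0.75 ± 0.07 (adjusted p = 1.51e-07). Cd9 (ENSMUSG00000030342, chr6:125460266-125494791, minus strand), a tetraspanin of the cell surface, was lower in every library too, at 194, 232, 207, 407 and 318 CPM against 335, 377, 378, 460.2 and 472 CPM, with a log2 fold change of -0.61 ± 0.07 (adjusted p = 3.9e-06).

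Further falls were those of Tnfsf9, a ligand of the tumour necrosis factor family (-0.68 ± 0.10), the heme oxygenase Hmox1, a stress gene (-0.60 ± 0.07), the membrane protein Emp2 (-0.57 ± 0.07), the lipid phosphatase Plpp1 (-0.57 ± 0.08), the thioredoxin-binding Txnip (-0.56 ± 0.07) and the matrix Gla protein Mgp (-0.52 ± 0.10). The sterol isomerase gene Ebp, the 1 called of 23 cholesterol synthesis genes, fell by 0.52 ± 0.08. Cd68, a lysosomal protein known from macrophages, fell by 0.52 ± 0.13, to 16.1, 9.8 and 19.1 CPM from 17.2, 16.7 and 18.1 at 37 °C and 16.9 and 13.5 CPM from 33.7 and 23.4 at 39 °C, with 37 °C replicate 3 the other way, while the immune genes Ptprc, C1qa and Tyrobp had 0 UMIs in gene-rich cells. The calls of Cd68 (-0.26) and Txnip (-0.46) were lost without 39 °C replicate 1, those of Cd68 (-0.46), Mgp (-0.40) and Ebp (-0.48) without 37 °C replicate 2, that of Mgp without 37 °C replicate 3 (-0.44) and that of Ebp without 37 °C replicate 1 (-0.43). Shares of UMIs sum to a constant, so a lower share in cells with more UMIs does not mean fewer molecules per cell.

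**Figure D4:**
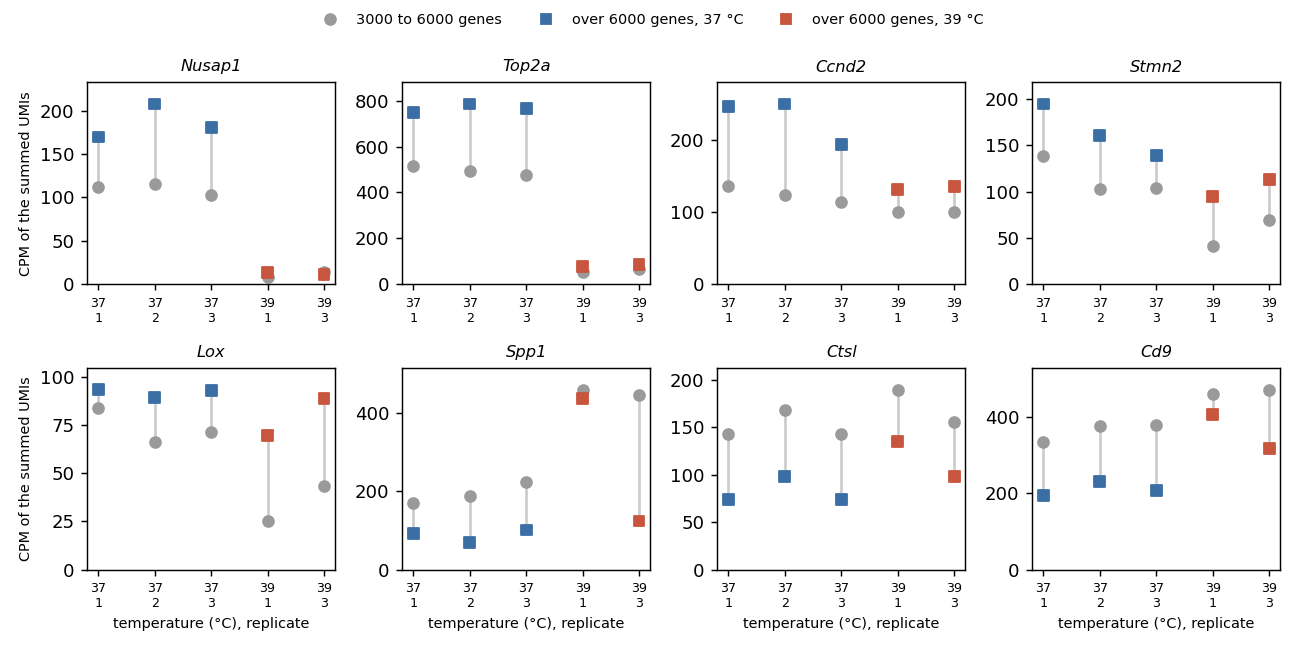
Share of UMIs (CPM, linear axes from 0) of 8 genes in each of the 5 libraries, labelled by temperature in °C and replicate: grey circles are the cells with 3000 to 6000 genes and squares, joined to them, the cells with over 6000 genes (blue 37 °C, red 39 °C). Nusap1 and Top2a differ by more CPM in the 3 libraries at 37 °C than in the 2 at 39 °C, Lox by more at 39 °C, and Ccnd2, Stmn2, Ctsl and Cd9 differ in 1 direction in all 5 libraries.

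In the other lists few genes passed both limits. Over all genes, 4.67% had an adjusted p below 0.05 in the higher direction and 5.76% in the lower. The 20 genes of very long transcripts for scaffolds and chromatin proteins had none called, but 11 with an adjusted p below 0.05 in the higher direction and none in the lower, with a median of 0.19. For the 80 ribosomal protein genes tested it was 13 higher and 4 lower, with a median of 0.07, and for the 24 nuclear genes of oxidative phosphorylation 2 and 7, with -0.06. Chaperones (median -0.09, 0 higher and 5 lower of 20) and the p53 targets and inhibitors of cyclin-dependent kinases (-0.08, 2 and 6 of 23) leaned lower, none past the limit on size. None was called in glycolysis, ribosome biogenesis, translation factors, immediate early genes, senescence-linked secreted factors, glial or neural progenitor genes, nor among the 13 mitochondrially encoded genes. Of the genes that the study discusses for this line, Mki67 was called, and Nes had 0.38 ± 0.08, Celf5 0.04 ± 0.07, Id2 -0.33 ± 0.07, Hmga2 0.14 ± 0.09, Irx3 -0.10 ± 0.07 and Cdh13 -0.16 ± 0.06.

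The temperatures were also fitted apart. In the 3 libraries at 37 °C, 145 genes were called higher (1.14% of 12698) and 174 lower (1.37%), and the mitotic median was 0.55 with 12 of 18 genes called, all higher. In the 2 libraries at 39 °C, 97 were called higher (0.776% of 12495) and 61 lower (0.488%), and the mitotic median was -0.08 with none called. For the G1/S genes the medians were -0.31 and 0.19. Matrix genes had 0.09 at 37 °C and 0.32 at 39 °C, and the scaffold and chromatin genes 0.16 and 0.20. With so few libraries these fits, and those within G2/M and of the interaction below, take the spread almost wholly from all genes together, so their counts are given without p-values for single genes. The standard errors printed for these fits rest on that pooled spread too, and do not measure how a single gene varied between libraries.

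The difference between the temperatures was tested as an interaction of class and temperature: 93 genes had a higher difference at 39 °C (0.733% of 12683) and 63 a lower one (0.497%). DESeq2 called 34 of these 12683 genes, cells thinned to 5000 UMIs gave 13, and the fit without the library block 0. Of the 18 mitotic genes 6 were in the lower group, with a median of -0.52. Ube2c, an enzyme of mitotic protein breakdown, took 529, 662 and 663 CPM in gene-rich cells at 37 °C against 424, 414 and 409, and 76.7 and 52.6 CPM at 39 °C against 76.8 and 92.4, an interaction of -0.75 ± 0.12. The centromere histone Cenpa (-0.77 ± 0.16), the replication kinase subunit Dbf4 (-0.72 ± 0.14), the spindle protein Prc1 (-0.71 ± 0.16) and the kinetochore gene Spc25 (-0.69 ± 0.13) went the same way. Without 39 °C replicate 1 the value was -1.41 for Ube2c, while the calls were lost for Cenpa (-1.30), Dbf4 (-0.27), Prc1 (-0.47) and Spc25 (-0.54). For Dbf4 the 2 libraries at 39 °C went opposite ways, with 36.3 and 41.8 CPM against 47.4 and 37.2.

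On the other side stood Omd, a small leucine-rich matrix proteoglycan, with 26.9, 57.2 and 35.2 CPM in gene-rich cells at 37 °C against 68.8, 71.5 and 62.3, and 79.8 and 44.5 CPM against 49.97 and 50.7 at 39 °C. Its interaction was 1.20 ± 0.14, and the 2 libraries at 39 °C went opposite ways. For Lox the interaction was 0.97 ± 0.13, and for the serine synthesis enzyme Phgdh 0.84 ± 0.14: gene-rich cells had 194, 224 and 220.5 CPM against 221, 249 and 251 at 37 °C and 37.4 and 62.1 CPM against 25.4 and 32.04 at 39 °C. Mgp (0.78 ± 0.14) and the surface protein Ly6a (0.75 ± 0.11) followed. Without 39 °C replicate 1 the calls were lost for Omd (0.48), Lox (0.67), Mgp (0.69) and Ly6a (0.52), and that of Phgdh was not. Of 20 G1/S genes 1 was called in the higher direction, with a median interaction of 0.45.

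Cells were also compared within the phase they were called. Among cells called G2/M, compared in the 3 libraries at 37 °C, 119 genes were higher (1.02% of 11648) and 156 lower (1.34%), but none of the 18 mitotic and 11 cytokinesis genes was called, and their medians were 0.02 and 0.05. The score that called these cells G2/M holds many of the same genes, so these 2 lists were compared on what chose the cells, and nothing is read from their values here. Ccnd2 rose by 1.11 ± 0.06, from 140.3, 116 and 111 CPM to 311, 282 and 209 CPM, so gene-rich G2/M cells were above the other G2/M cells in each of the 3 libraries. Sox11, a transcription factor of neural progenitors, rose by 0.90 ± 0.10, with 63.6, 69.7 and 59.7 CPM against 40.9, 31.9 and 33.7. Stmn2 (0.78 ± 0.07), Flrt2 (0.76 ± 0.07) and the cornified envelope gene Sprr1a (0.74 ± 0.09) followed. Sprr1a was at 80.9, 125 and 50.4 CPM against 32.7, 57.2 and 48.3, with almost no gap in replicate 3, and its value was 1.18 without that library and 0.40, no longer called, without replicate 2.

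The falls within G2/M were led by Spp1 (-1.12 ± 0.08), Hmox1 (-0.85 ± 0.11), Ctsl (-0.79 ± 0.08), Tnfsf9 (-0.77 ± 0.10) and the RNA helicase gene Ddx39 (-0.74 ± 0.07). Ribosomal protein genes moved together here: 59 of 80 had an adjusted p below 0.05 in the higher direction (4.82% of all genes did) and none in the lower, although none passed the limit on size and their median was only 0.17. In place of 275 genes in this comparison, DESeq2 called 52, the fit without the library block 123, cells thinned to 5000 UMIs 82, and the libraries without 37 °C replicates 1 and 2 gave 133 and 158.

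Within S phase, in the 3 libraries at 37 °C and replicate 1 at 39 °C, 34 genes were higher (0.297% of 11449) and 44 lower (0.384%). Normalization by total counts alone turned this split into 47 higher and 32 lower. The count of 78 fell to 25, 16 and 29 without 37 °C replicates 1, 2 and 3 and was 255 without 39 °C replicate 1. Of the mitotic genes 3 were called higher, with a median of 0.34, and 5 had an adjusted p below 0.05. The phase call used many of these genes for S too, so nothing is read from their values here. The glucosylceramide synthase Ugcg (0.73 ± 0.15), the folliculin partner Fnip1 (0.66 ± 0.13), Flrt2 (0.61 ± 0.09), the adhesion protein Nectin1 (0.60 ± 0.13) and the activin subunit Inhbb (0.58 ± 0.10) rose most. The chemokine Cxcl12 (-0.83 ± 0.13), the protease inhibitor Serpinb1a (-0.77 ± 0.10), Ebp (-0.70 ± 0.10), Omd (-0.67 ± 0.13) and Plpp1 (-0.66 ± 0.11) fell most. Of these 10 genes, Ugcg, Fnip1, Nectin1, Cxcl12, Omd and Plpp1 lost the call without 37 °C replicate 2, Nectin1 and Omd without replicate 1, and Fnip1 and Nectin1 without replicate 3.

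Within G1, in replicates 2 and 3 at 37 °C and replicates 1 and 3 at 39 °C, 36 genes were higher (0.306% of 11756) and 28 lower (0.238%), and without 37 °C replicate 3 the count was 97. Without the library block 0 were called in S and in G1. Lox took 154, 228, 74.8 and 100.2 CPM in gene-rich G1 cells of these 4 libraries against 81.4, 72.9, 25.9 and 45.6 CPM, a log2 fold change of 1.35 ± 0.12 (adjusted p = 1.1e-08). Tagln, a smooth muscle actin-binding protein, took 417, 298, 17.97 and 22.7 CPM against 162, 111, 6.52 and 15.2 CPM (1.33 ± 0.13). Both were higher in 4 of 4 libraries, and the 37 °C values rest on 11 and 12 gene-rich cells. Over all phases, 1 gene-rich cell of 39 °C replicate 3 held 66.7% of the Tagln UMIs of that library's gene-rich cells. The basement membrane gene Nid1 (0.93 ± 0.17), Prune2 (0.82 ± 0.13) and Basp1, a protein of growth cones (0.80 ± 0.13), also rose, and 3 of the 18 matrix genes tested were called higher with a median of 0.34.

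The deepest falls in G1 were those of Gas1, a growth arrest gene of the cell surface, with 26.1, 18.1, 26.9 and 9.45 CPM against 42.99, 38.9, 72.9 and 48.3 CPM (-1.40 ± 0.18, adjusted p = 1.27e-05), and of Enpp2, the enzyme autotaxin (-1.31 ± 0.19). Enpp2 took 26.1, 2.26, 37.5 and 13.2 CPM against 33.6, 20.4, 84.9 and 67.0 CPM. Over all phases, 1 cell held 73.3, 50, 19.5 and 71.4% of the Enpp2 UMIs of the gene-rich cells in these 4 libraries. Spp1 (-1.13 ± 0.16), Tnfsf9 (-0.67 ± 0.14) and Cd9 (-0.65 ± 0.11) fell as they did over all cells, Cd9 to -0.49 and not called without 37 °C replicate 3, and Tnfsf9 to -1.13 without 39 °C replicate 1. Across the 3 phases, 9 genes were called in the same direction each time, among them Ccnd2, Cd9, Ctsl, Ebp, Slurp1, Tm4sf1, Tnfaip2 and Tnfsf9. Slurp1 rests on 1 cell in part: a gene-rich cell of 39 °C replicate 3 held 148 of the 157 Slurp1 UMIs of that library's gene-rich cells and 90 of the 96 of Mal.

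**Figure D5:**
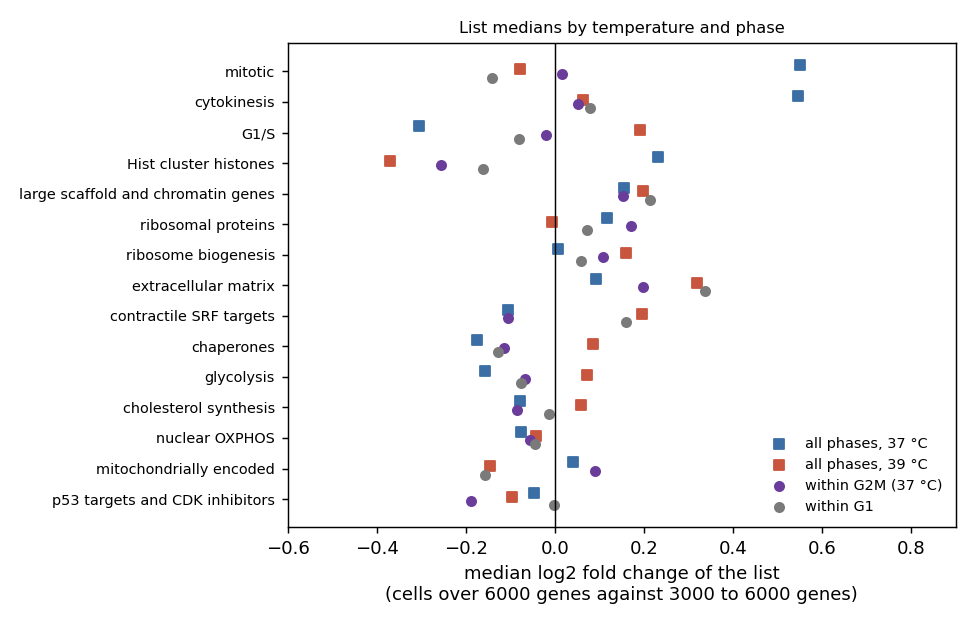
Median log2 fold change of each gene list between cells with over 6000 genes and cells with 3000 to 6000 genes, for all phases at 37 °C (blue squares), all phases at 39 °C (red squares), within G2M at 37 °C (purple circles) and within G1 (grey circles); no error bars are drawn. The mitotic list is at 0.55 at 37 °C, -0.08 at 39 °C and 0.02 within G2M. The phase calls used genes of the mitotic, cytokinesis and G1/S lists, so nothing is read from these lists within G2M or within G1.

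Between the gene-rich cells of the 2 temperatures, 1281 genes were higher at 39 °C (11.5% of 11120) and 1414 lower (12.7%). Without 39 °C replicate 1, which held 139 of the 159 gene-rich cells at that temperature, the count was 1169 in place of 2695. All 18 mitotic genes were lower, with a median of -3.59, as were all 11 cytokinesis genes (-3.06) and 16 of 20 G1/S genes (-0.91). Cenpf, a kinetochore protein, took 582, 629.6 and 599 CPM in the 3 libraries at 37 °C and 23.4 and 20.7 CPM in the 2 at 39 °C (-4.72 ± 0.15). Pimreg (-5.09 ± 0.28), Plk1, the polo-like kinase of mitosis (-4.72 ± 0.25, at 0 in replicate 3 at 39 °C, so that its value rests on replicate 1), Cdca3 (-4.57 ± 0.21) and cyclin A2, Ccna2 (-4.45 ± 0.21), fell most with it. Higher at 39 °C were Ckmt1, a mitochondrial creatine kinase (2.37 ± 0.16), the growth factor Fgf18 (2.29 ± 0.17), the histone Hist1h2bc (2.27 ± 0.16) and the aldehyde dehydrogenase Aldh3a1 (2.26 ± 0.13). Temperature, serum and the make-up of phases differ together between these cells, and their parts cannot be told apart.

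The genes called with the fixed limit were then looked up in the 3 libraries it had not used, with the 5% of cells with most genes against the 25th to 95th percentile. Of the 209 called genes 208 were tested there, and 180 (86.5%) went in the same direction, while over all 12451 genes tested in both 69.5% did. An adjusted p below 0.05 in the same direction was found for 41 and in the opposite direction for 0, where 2.54 and 3.65% of all genes passed in the higher and lower direction. For Ccnd2 the log2 fold change in these libraries was 0.67 ± 0.06, for Stmn2 0.40 ± 0.06, for Ctsl -0.61 ± 0.06 and for Spp1 -1.03 ± 0.07. The mitotic median there was 0.13, with 2 of the 3 libraries from 39 °C. Classes were also formed by the number of genes in one set of alternate rows of the gene table and shares measured in the other set, and the reverse. No gene then both chose the cells and was measured in them, and 212 genes were called, of which 186 were among the 209. Detected genes in either set follow the depth of a cell, so largely the same cells of the same libraries may be chosen again. This overlap is therefore not independent support.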

How the data were processed

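The transcriptomes of SN4741 cells were captured with the Chromium Single Cell 3' v3 kit in 4 libraries at 37 °C and 4 at 39 °C. The deposited values are UMI counts per gene and barcode, made by the authors with Cell Ranger 3.0.1 on mm10 according to the submitters' processing notes, and the deposited matrices hold 19125 barcodes and 31053 genes. Gene coordinates are from GENCODE M21 and promoters from RefSeq, both on GRCm38. Gene-rich cells (over 6000 genes, at most 15% mitochondrial UMIs, libraries with at least 20) and comparison cells (3000 to 6000 genes) were summed per library.

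Sums were tested in edgeR 4.0.16 (quasi-likelihood, TMM factors, library as a block, genes with a mean of at least 5 counts), with DESeq2 1.42.0 as an alternative. In phases and interactions the same test was used, with at least 10 gene-rich cells per library and phase. Phases came from Seurat 5.3.0 on cells thinned to 5000 UMIs. Shares of cells were tested over libraries with exact 2-sided permutation tests in scipy 1.17.1. Doublets were scored with Scrublet in scanpy 1.11.5, with an expected 0.8% per 1000 barcodes, and no cell was removed for its score. The fits were tested on simulated counts.

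Named genes are the 10 largest rises and falls (5 in phases, in the interaction and between temperatures) among called genes with at least 50 CPM in the higher class and 1 direction in all libraries, leaving out predicted and unnamed genes, with up to 3 called genes of each list and the genes that the study names. The cells and the gene lists were chosen with earlier results of these data known. Certain genes are not reported here. The alternatives were other size factors, filters, thinning, limits on genes and mitochondrial UMIs, each library left out and a relative limit. The intervals cover counting error only.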

Additional observations from a re-analysis of the deposited data

Results flagged for a closer look

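In a search for samples far from the others in groups of 4 libraries, the share of gene-rich cells in 39 °C replicate 1, 11.9% of its barcodes, stood apart from the other 3 libraries at 39 °C. Chance marks about 1 group in 20 in this way. The same library had the fewest barcodes and the highest median UMIs of the 8, and their part in the share was not tested.

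By the relative limit, the difference in percentage points between the top cells and the middle cells was not the same at 37 °C and 39 °C. The difference in the G2/M share was 18.2 points larger at 37 °C, that in the G1 share was -6.88 points and that in the S share -11.3 points at 37 °C relative to 39 °C, each with an exact permutation p of 0.0286 over 8 libraries. That is the smallest p this design allows, and the relative limit was chosen after the data had been seen. Of the middle cells, 33.9 to 38.0% were in G2/M at 37 °C and 3.30 to 4.56% at 39 °C. An equal ratio of shares would thus give a smaller gap in points at 39 °C, and ratios were not tested.

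In single genes the class difference changed with temperature, by the interaction test in edgeR over 5 libraries. The difference at 39 °C was above that at 37 °C for Omd (1.20 on the log2 scale), Lox (0.97), Phgdh (0.84), Mgp (0.78) and Ly6a (0.75). It was below for the cell cycle genes Cenpa (-0.77), Ube2c (-0.75), Dbf4 (-0.72), Prc1 (-0.71) and Spc25 (-0.69). Without the library block this interaction called 0 genes, 956 having an unadjusted p below 0.05, and without 39 °C replicate 1 only Phgdh and Ube2c of these genes were called.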

How the results depend on the processing

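The direction and the side of the threshold held in 1379 of 1620 recomputed values for single named genes, and 234 of the rest kept their direction but lost the call. The counts of called genes (209 over all cells, 275 in G2/M, 78 in S, 64 in G1, 156 in the interaction, 2695 between temperatures) moved with several choices. With no library block they were 0 over all cells, 123 in G2/M and 0 in S, G1 and the interaction, where 732, 788, 516 and 956 genes had an unadjusted p below 0.05 over all cells, in S, in G1 and in the interaction. DESeq2 gave 90, 52, 37, 36, 34 and 1547 in the order above. Against comparison cells of 4500 to 6000 genes the counts were 23, 45, 9, 12 and 92. Cells thinned to 5000 UMIs gave 82 in G2/M, 33 in S, 24 in G1, 13 in the interaction and 1049 between temperatures. Without a filter on low counts, 138 were called in S and 108 in G1, and a mitochondrial limit of 10% left 47 in S. The relative limit in 8 libraries gave 126 over all cells and 55 in the interaction.

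Leaving out each library in turn gave 133 (without 37 °C replicate 2) to 267 over all cells, 133 (without 37 °C replicate 1) to 217 in G2/M, 16 (without 37 °C replicate 2) to 255 (without 39 °C replicate 1) in S, 56 to 97 (without 37 °C replicate 3) in G1, 106 to 191 in the interaction and 1169 (without 39 °C replicate 1) to 2822 between temperatures. In S the counts without 37 °C replicates 1 and 3 were 25 and 29. A temperature left with 1 library was taken to vary like the other. The phase differences ranged from 9.91 to 17.0 points for G2/M, from -12.0 to -9.29 for G1 and from -6.90 to 0.130 for S, reversed without 37 °C replicate 3, and the share of cells high in both sums from 0.240 to 2.17. By the relative limit they were 11.5, -4.75 and -6.73 points, now past the threshold of the exact test with 8 libraries, and the 90th percentile turned the share of cells high in both sums to -0.516. Among genes that were not called, Celf5 changed sign without 37 °C replicate 2 (-0.036, with a highest value of 0.13 without 1 library), without 39 °C replicate 3 (-0.011), above 6500 genes (-0.050) and when thinned (-0.114), Hmga2 without 37 °C replicate 2 (-0.023, with a highest value of 0.207 without 1 library) and Irx3 above 6500 genes (0.11), where Nes reached 0.52. The cause was not tested.

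The temperatures share only the replicate numbers 1 and 3 among these libraries, and nothing in the labels ties them. With the number as a replicate block, 2121 genes were called between temperatures, 970 higher and 1151 lower. Comparisons above 6500 genes within S and G1 were not run, as too few libraries had 10 such cells. Depth limits the 20 cells of 39 °C replicate 3 most.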
